A study of Mus musculus with 18 samples.

Results

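The liver sinusoid is lined by endothelial cells, and 10 genes used as markers of these cells were followed: Clec4g, Lyve1, Fcgr2b, Oit3, Gpr182, Dnase1l3, Bmp2, Wnt2, Cd34 and Plvap. They were taken by symbol from a table of 35441 genes, and all 10 were among the 14533 genes with enough reads to be tested. Liver RNA came from 18 male mice, 3 in each of 6 groups: WT mice, Lipa-/- mice, and Lipa-/- mice treated with rAAV8. The groups stand for 12- or 34-weeks post-injection (3 and 8 months in the labels). Lipa encodes lysosomal acid lipase, which degrades cholesteryl esters and triglycerides in lysosomes. The Lipa-/- allele lacks exon 4 in all tissues, because tm1a mice were crossed with mice that express Cre from the CMV promoter, and the line was bred onto C57/BL6N. Treated mice carry the same deletion and received rAAV8.hAAT.LIPA in the tail vein at an age of 10 to 12 weeks. The vector encodes human LIPA under the hepatocyte-specific human α1-antitrypsin promoter, so endothelial cells are not meant to make the enzyme themselves. By the methods of the study, only 1 untreated Lipa-/- mouse was alive at 34-weeks. The others had been killed earlier at endpoints set in advance. At most 1 of the 3 untreated Lipa-/- mice grouped as 34-weeks was thus killed then, and the labels do not say which. All mice of 34-weeks share 1 study code that is not used at 12-weeks, where Lipa-/- mouse 5 has a code of its own, so time and study code cannot be told apart.

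Liver sinusoidal endothelial cells (LSECs) have open fenestrae without diaphragms and almost no basement membrane. They take up waste molecules, lipoproteins and immune complexes from blood through scavenger and Fc receptors, and they secrete BMP and Wnt ligands that act on neighbouring hepatocytes. In chronic liver disease LSECs are known to lose fenestrae and to gain features of ordinary capillary endothelium, a change called capillarization, of which Cd34 is a classical marker. Several of the 10 genes are also known from other cells: Fcgr2b from B cells and macrophages, Lyve1 from lymphatic vessels and some tissue macrophages, and Cd34 from blood progenitors. The libraries are of whole liver, so fewer LSECs and less RNA of a gene per LSEC cannot be told apart.

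The 250 bases before the start of the canonical transcript were read from the GRCm39 genome for all 10 genes. Shown are those of 4 of the genes that were called lower in Lipa-/- mice at both time points, and that of Lyve1, which was called higher at both. Capitals mark matches, on either strand, to 4 short motifs of factors active in endothelial cells. For GATA factors these were the letters AGATAA and, as a second form, TGATAA. For ETS factors the letters AGGAAG were searched, together with the related form CGGAAG. The MAF site was searched as TGCTGA, which is part of its full site. The SMAD site was searched as GGCGCC, which reads alike on both strands.
Clec4g (chr8:3770672-3770921, minus strand): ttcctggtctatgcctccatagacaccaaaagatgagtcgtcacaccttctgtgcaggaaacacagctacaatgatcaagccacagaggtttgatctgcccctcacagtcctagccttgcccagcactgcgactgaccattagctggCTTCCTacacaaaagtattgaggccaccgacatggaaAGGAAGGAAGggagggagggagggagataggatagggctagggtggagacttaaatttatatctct
Dnase1l3 (chr14:14474950-14475199, plus strand): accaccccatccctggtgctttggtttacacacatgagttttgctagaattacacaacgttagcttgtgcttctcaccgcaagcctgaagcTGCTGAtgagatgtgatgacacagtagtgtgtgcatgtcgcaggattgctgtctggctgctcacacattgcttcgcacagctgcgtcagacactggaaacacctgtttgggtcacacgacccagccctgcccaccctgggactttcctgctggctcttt
Bmp2 (chr2:133393829-133394078, plus strand): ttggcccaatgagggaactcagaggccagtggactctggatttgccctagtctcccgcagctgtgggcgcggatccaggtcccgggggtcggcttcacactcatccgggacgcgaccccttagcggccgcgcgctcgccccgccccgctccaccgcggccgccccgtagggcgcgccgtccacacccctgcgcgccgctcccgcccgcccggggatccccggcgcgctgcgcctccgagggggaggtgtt
Wnt2 (chr6:18031893-18032142, minus strand): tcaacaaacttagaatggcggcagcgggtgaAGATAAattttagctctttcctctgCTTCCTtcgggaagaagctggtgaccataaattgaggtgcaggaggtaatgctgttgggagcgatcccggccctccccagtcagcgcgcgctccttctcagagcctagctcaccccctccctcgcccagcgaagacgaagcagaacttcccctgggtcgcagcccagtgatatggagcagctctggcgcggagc
Lyve1 (chr7:110462461-110462710, minus strand): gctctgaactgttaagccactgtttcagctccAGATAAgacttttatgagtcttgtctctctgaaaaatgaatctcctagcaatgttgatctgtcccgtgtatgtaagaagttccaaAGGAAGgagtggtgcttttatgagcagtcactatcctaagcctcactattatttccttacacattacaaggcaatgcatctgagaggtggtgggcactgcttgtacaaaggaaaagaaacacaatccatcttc
None of these 5 windows overlaps an annotated exon, and each sequence is read 5′ to 3′ along the strand of its gene. The GATA motif was present in 3 of the 10 windows (Lyve1, Wnt2 and Plvap), against 15.9% of the 21757 windows of all protein-coding genes. An ETS motif was found in 5 of 10, among them Clec4g, Lyve1, Wnt2 and Cd34, against 39.3%. The MAF site was found in Dnase1l3 alone (14.8% of all windows), and GGCGCC in none of the 10 (9.32%). The matches are letters of the reference and were not measured as binding. The windows of Lyve1, which rose, and of Wnt2, which fell, each held a GATA and an ETS motif. Bmp2 had the highest GC content, 74.8%, and Lyve1 the lowest, 41.6%.

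Murine Lipa lay between 202 and 323 CPM in WT mice and between 16.7 and 37.0 CPM in all mice with the deletion, and hLIPA ranged from 523 to 2746 CPM in treated mice, against at most 0.906 CPM in any other mouse. The total count per mouse lay between 17527848 and 25833134 reads, with TMM scaling factors of 0.587 to 1.69. CPM is the count of a gene relative to the library size after this scaling, and 3 reads, the count that 0 observed reads still allow, correspond to 0.0946 to 0.291 CPM. The floor covers counting error only. The lowest count of any member in a mouse was 14 reads (Wnt2), and every other member had at least 20. Called genes had a change of over 1 on the log2 scale, up or down, together with an adjusted p below 0.05 in edgeR's quasi-likelihood test (Benjamini-Hochberg over all tested genes). An exact permutation test of 2 groups of 3 mice has a smallest p of 0.1, so the p-values of single genes rest on the edgeR model.

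In WT livers the 10 genes covered a wide range of levels. On the TPM scale, which corrects for transcript length, Clec4g was highest in WT mice at 12-weeks with 49.2 ± 12.3 TPM (SD, n = 3). Fcgr2b followed with 17.96 ± 0.599 and Plvap with 15.8 ± 4.61, and these did not differ beyond their spread. Next came Dnase1l3 (6.60 ± 1.10) and Oit3 (5.56 ± 0.645), whose ranges overlapped, and Gpr182 (4.27 ± 0.394) and Bmp2 (3.64 ± 0.456), whose ranges overlapped too. Lyve1 (1.72 ± 0.633) and Wnt2 (1.396 ± 0.172) overlapped, and Cd34 was lowest with 0.689 ± 0.375 TPM. In Lipa-/- mice at 34-weeks the order was another one: Fcgr2b led with 68.1 ± 28.7 TPM, followed by Plvap with 25.7 ± 9.42, Clec4g with 15.1 ± 4.97 and Lyve1 with 14.1 ± 8.58. Plvap and Clec4g overlapped, and so did Clec4g and Lyve1. Cd34 had 6.69 ± 3.62 TPM there, above Dnase1l3 with 1.15 ± 0.468, which overlapped with no other gene but Wnt2 (0.658 ± 0.275) and Bmp2 (2.63 ± 1.22).

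**Figure D1:**
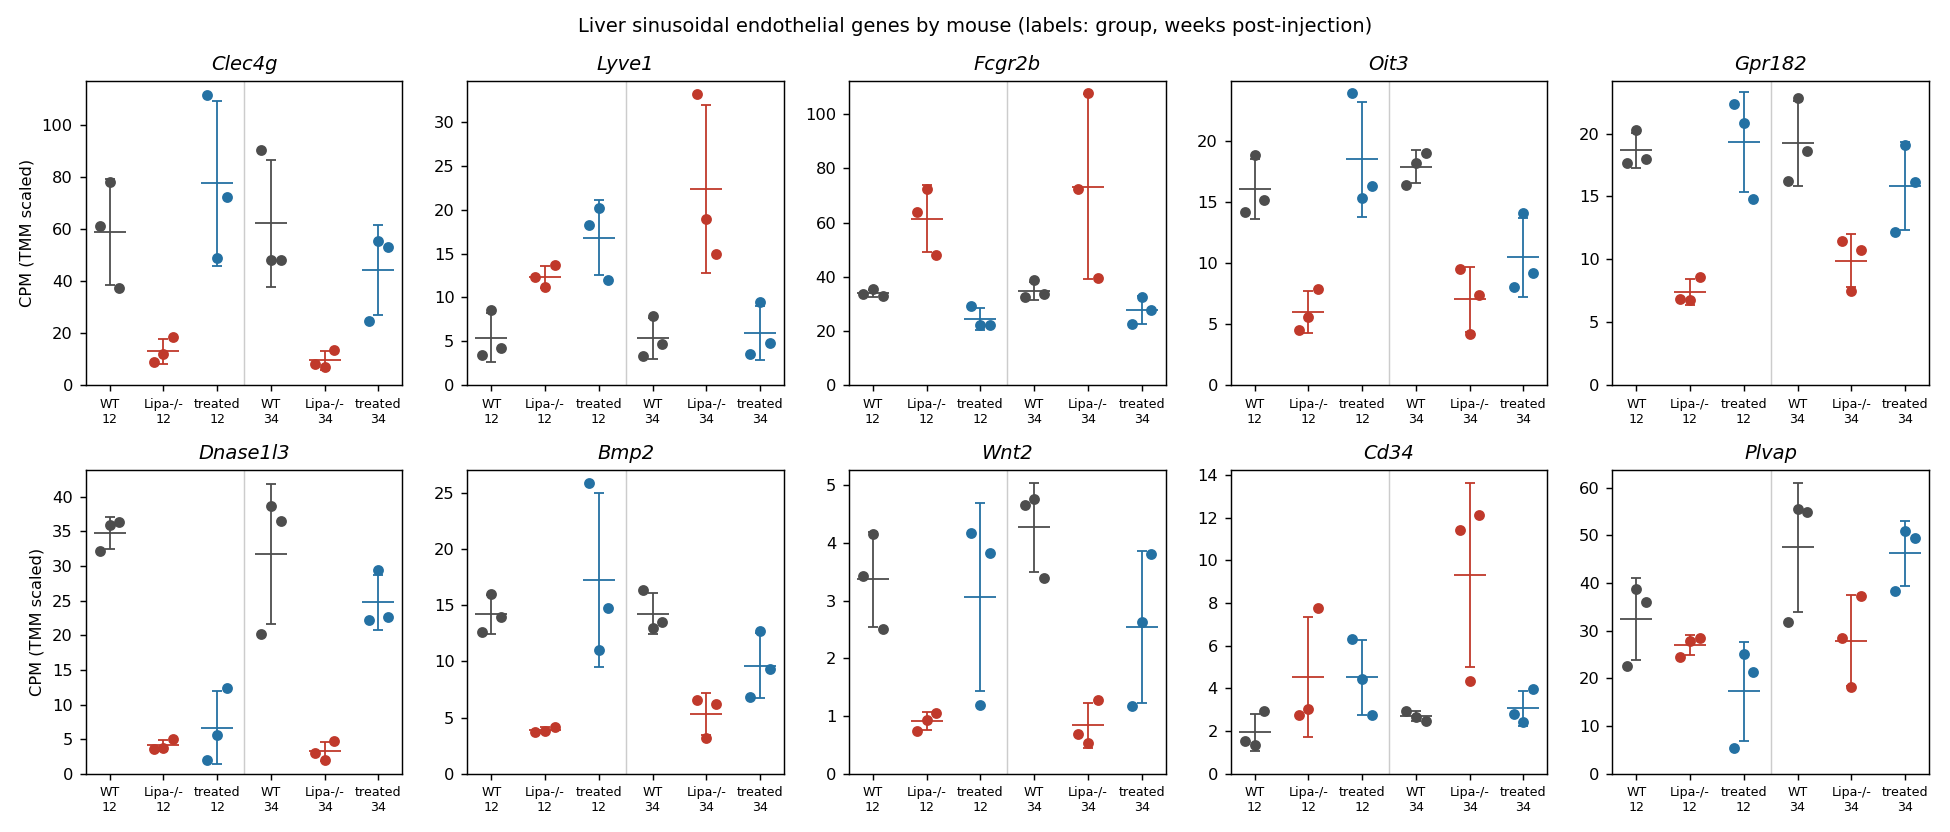
Level of each of the 10 genes in CPM (vertical axes, from 0) in the 18 mice, by group and weeks post-injection. Points are mice, horizontal bars are means of 3 mice and error bars are SD. Clec4g, Oit3, Gpr182, Dnase1l3, Bmp2 and Wnt2 lie under the WT mice in all Lipa-/- mice of both time points, and Lyve1 and Fcgr2b lie above them.

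The comparison of Lipa-/- with WT mice asks what loss of the lipase does to the marker set. The set split by direction: Clec4g, Oit3, Gpr182, Dnase1l3, Bmp2 and Wnt2 were lower at both time points, and Lyve1, Fcgr2b and Cd34 were higher. At 12-weeks 2 members were called higher and 6 lower, where 20.2% of all tested genes were called higher and 9.06% lower. At 34-weeks 3 were called higher and 5 lower, against 20.5% and 15.7% of all tested genes. The members called higher were thus near the share of all tested genes at both time points. The median log2 fold change of the members was -1.38 at 12-weeks and -1.15 at 34-weeks, and over all tested genes it was 0.018 and -0.027. The groups did not overlap for 8 of the 10 members at 12-weeks and 9 of 10 at 34-weeks, where this held for 52.7% and 60.3% of all tested genes. Of the 6 genes that fell at 12-weeks, 3 were still called lower when scaled to other endothelial genes, as given further on.

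Clec4g encodes LSECtin, a C-type lectin of the LSEC surface that binds glycans. At 12-weeks its level was 61.2, 78.1 and 37.3 CPM in WT mice and 8.94, 12.0 and 18.4 CPM in Lipa-/- mice. At 34-weeks it was 90.4, 48.3 and 48.1 CPM in WT mice and 8.17, 6.88 and 13.6 CPM in Lipa-/- mice. Every Lipa-/- mouse lay under every WT mouse, and WT mice also differed among themselves. The log2 fold change was -2.17 (SE 0.425, adjusted p = 0.000689) at 12-weeks and -2.70 (SE 0.434, adjusted p = 8.26e-05) at 34-weeks.

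Dnase1l3 encodes a secreted nuclease that degrades DNA in apoptotic debris and chromatin in blood, and it showed the largest fold change among the members at both time points. WT mice had 32.2, 35.9 and 36.4 CPM at 12-weeks and 20.2, 38.7 and 36.5 CPM at 34-weeks. Lipa-/- mice had 3.58, 3.77 and 5.05 CPM at 12-weeks and 3.03, 2.01 and 4.74 CPM at 34-weeks. The groups were far apart, with the highest Lipa-/- mouse at 5.05 CPM and the lowest WT mouse at 20.2 CPM. The decrease was 8.42-fold at 12-weeks (log2 fold change -3.07, SE 0.462, adjusted p = 6.42e-05) and 9.74-fold at 34-weeks (log2 fold change -3.28, SE 0.468, adjusted p = 2.66e-05).

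Oit3, a zona pellucida domain protein used as a marker of LSECs, and Gpr182, an atypical chemokine receptor of sinusoidal and lymphatic endothelium, fell less. Oit3 had 14.2, 18.9 and 15.2 CPM in WT and 4.54, 5.59 and 7.88 CPM in Lipa-/- mice at 12-weeks, and 16.4, 18.2 and 19.0 against 9.46, 4.21 and 7.35 CPM at 34-weeks. Its log2 fold change was -1.42 (SE 0.301, adjusted p = 0.00131) and -1.35 (SE 0.299, adjusted p = 0.00139). Gpr182 had 17.7, 20.3 and 18.01 CPM in WT and 6.81, 6.80 and 8.57 CPM in Lipa-/- mice at 12-weeks. That is a log2 fold change of -1.34 (SE 0.23, adjusted p = 0.000226). At 34-weeks it had 16.2, 22.9 and 18.6 against 11.4, 7.50 and 10.8 CPM, and its log2 fold change of -0.96 (SE 0.227, adjusted p = 0.00234) missed the fold threshold. Both genes were lower in every Lipa-/- mouse than in any WT mouse of the same time point. The call of Gpr182 at 34-weeks turned on 1 mouse: without WT mouse 1, Lipa-/- mouse 4 or Lipa-/- mouse 6 its log2 fold change was -1.06, -1.04 or -1.01 and was called.

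The secreted ligands Bmp2 and Wnt2 both fell. BMP2 from LSECs induces hepcidin, the iron hormone, in hepatocytes, and WNT2 from LSECs around the central vein activates β-catenin in nearby hepatocytes. Bmp2 had 12.6, 16.0 and 14.0 CPM in WT and 3.76, 3.77 and 4.16 CPM in Lipa-/- mice at 12-weeks, with little spread in either group. At 34-weeks it had 16.3, 12.97 and 13.5 against 6.56, 3.17 and 6.17 CPM. The log2 fold change of Bmp2 was -1.86 (SE 0.324, adjusted p = 0.00024) at 12-weeks and -1.42 (SE 0.317, adjusted p = 0.00145) at 34-weeks. Wnt2, the member with the fewest reads, had 3.43, 4.16 and 2.51 CPM in WT and 0.745, 0.932 and 1.05 CPM in Lipa-/- mice at 12-weeks. At 34-weeks Wnt2 had 4.66, 4.77 and 3.39 against 0.694, 0.541 and 1.29 CPM. Its log2 fold change was -1.89 (SE 0.483, adjusted p = 0.00525) and -2.34 (SE 0.486, adjusted p = 0.000821), and no Lipa-/- mouse reached the lowest WT mouse.

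Lyve1, a receptor for hyaluronan, went the other way. Its level was 3.43, 8.61 and 4.19 CPM in WT and 12.3, 11.1 and 13.7 CPM in Lipa-/- mice at 12-weeks (log2 fold change 1.19, SE 0.425, adjusted p = 0.0348). The groups did not overlap, but the call at 12-weeks was lost without WT mouse 1 (log2 fold change 0.95), WT mouse 3 (1.03) or Lipa-/- mouse 5 (1.19), 8 (1.26) or 9 (1.11), with adjusted p of 0.0522 to 0.14. At 34-weeks Lyve1 had 3.30, 7.92 and 4.71 CPM in WT and 33.2, 18.9 and 14.996 CPM in Lipa-/- mice. There it rose 4.19-fold (log2 fold change 2.07, SE 0.431, adjusted p = 0.000854), a call that was kept without any 1 mouse.

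Fcgr2b, the inhibitory Fc receptor that clears small immune complexes in LSECs, was narrow in WT mice, with 33.4, 35.4 and 32.9 CPM at 12-weeks and 32.4, 38.6 and 33.5 CPM at 34-weeks. Lipa-/- mice had 64.1, 72.3 and 47.9 CPM at 12-weeks, all above WT mice, and a log2 fold change of 0.86 (SE 0.277, adjusted p = 0.021) that missed the fold threshold. Without Lipa-/- mouse 9, the lowest of the 3, it was 1.01 and was called. At 34-weeks Lipa-/- mice had 72.2, 107.9 and 39.5 CPM, with a log2 fold change of 1.07 (SE 0.278, adjusted p = 0.00445), and without mouse 5 it was 0.69 and was not called. Of its 18 estimated counts 17 were not whole numbers, so Salmon split reads between Fcgr2b and sequences like it.

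Cd34, a sialomucin of continuous capillaries, was low in WT livers, with 1.55, 1.34 and 2.93 CPM at 12-weeks and 2.95, 2.68 and 2.49 CPM at 34-weeks. Lipa-/- mice had 2.77, 3.03 and 7.76 CPM at 12-weeks, where mouse 5 lay within the WT range, and 11.4, 4.33 and 12.1 CPM at 34-weeks, all above WT mice. The log2 fold change was 1.22 (SE 0.469, adjusted p = 0.0491) at 12-weeks and 1.78 (SE 0.463, adjusted p = 0.00445) at 34-weeks. The first of these calls was lost without WT mouse 1 (1.08), WT mouse 2 (1.01) or Lipa-/- mouse 9 (0.58), with adjusted p of 0.146 to 0.346. None of the 18 estimated counts of Cd34 was whole.

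Plvap, the protein that builds the diaphragms of fenestrae and caveolae in other capillaries, did not pass the test at either time point. Its level was 22.6, 38.8 and 36.0 CPM in WT and 24.5, 27.9 and 28.4 CPM in Lipa-/- mice at 12-weeks, where the groups overlapped. At 34-weeks it was 31.9, 55.6 and 55.0 against 28.4, 18.1 and 37.2 CPM, again with overlap. The log2 fold change was -0.27 (SE 0.399, adjusted p = 0.63) and -0.77 (SE 0.4, adjusted p = 0.126). The sign at 12-weeks depended on the scaling: it was 0.205 with total counts and 0.60 when scaled to pan-endothelial genes.

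**Figure D2:**
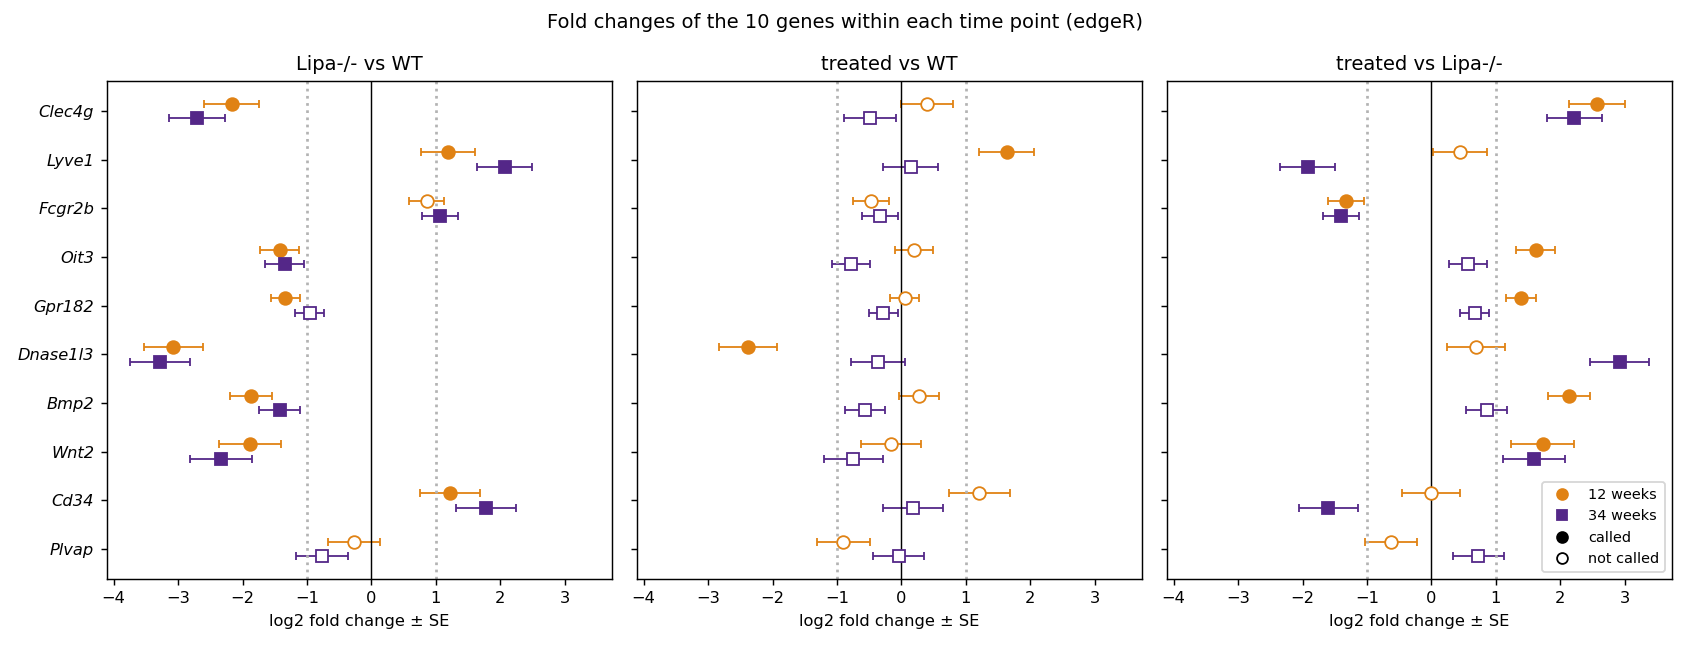
log2 fold change ± SE (horizontal axis) of the 10 genes in the 3 comparisons within 12-weeks (orange circles) and 34-weeks (purple squares). Filled symbols are called and dotted lines mark a log2 fold change of 1 and -1. In the middle panel only Lyve1 and Dnase1l3 at 12-weeks are filled, and 0 genes at 34-weeks.

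In treated mice 8 of the 10 genes were not called against WT mice at 12-weeks, and 10 of 10 at 34-weeks. At 12-weeks 1 member was higher and 1 lower than in WT mice, with 13.6% and 12% of all tested genes called. These shares depended on single mice: in both directions together, 11.3% of all tested genes were called without WT mouse 3 and 12.4% without treated mouse 10. The lower one was Dnase1l3, with 1.94, 5.65 and 12.3 CPM, all under the lowest WT mouse at 32.2 CPM (log2 fold change -2.38, SE 0.453, adjusted p = 0.00313). The higher one was Lyve1, with 18.3, 20.2 and 12.0 CPM, where the highest WT mouse had 8.61 CPM (log2 fold change 1.63, SE 0.431, adjusted p = 0.0106). That call was lost without WT mouse 3 (log2 fold change 1.48, adjusted p = 0.0561) and with log2 TPM in limma (0.82, adjusted p = 0.143). Cd34 had 6.32, 4.46 and 2.76 CPM and a log2 fold change of 1.21 (SE 0.476, adjusted p = 0.0558), which was called without treated mouse 12 (1.398, adjusted p = 0.0403) and by DESeq2 (1.31, adjusted p = 0.0338). Plvap had 5.44, 25.2 and 21.2 CPM, a log2 fold change of -0.90 (SE 0.405, adjusted p = 0.0888), and was called without treated mouse 11 (-1.27, adjusted p = 0.0434) and with total counts (-1.24, adjusted p = 0.0414).

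The remaining members had 12-week levels that overlapped with WT mice, other than Fcgr2b. Treated mice had 112, 48.8 and 72.4 CPM of Clec4g, 23.9, 15.3 and 16.3 CPM of Oit3, and 22.3, 20.9 and 14.8 CPM of Gpr182. Bmp2 had 25.9, 11.0 and 14.7 CPM and Wnt2 4.18, 1.20 and 3.83 CPM. Their log2 fold changes against WT mice lay between -0.16 (Wnt2) and 0.40 (Clec4g), with SE of 0.226 to 0.465, and changed sign with the scaling. Fcgr2b had 29.1, 22.0 and 22.2 CPM, all under WT mice, with a log2 fold change of -0.47 (SE 0.278, adjusted p = 0.185). Treated mouse 10 had the highest Clec4g, Oit3, Gpr182, Bmp2 and Wnt2 of its group and the lowest Dnase1l3 and Plvap.

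At 34-weeks edgeR called 0 of the 10 members between treated and WT mice, and DESeq2 called 0 as well, where 0.131% of all tested genes were called higher and 0.0895% lower. At an unadjusted p under 0.05 there was 1 member by each tool, and 5.76% of all tested genes by edgeR. That member was Oit3, with 8.05, 14.1 and 9.18 CPM in treated mice, all under the lowest WT mouse at 16.4 CPM (log2 fold change -0.78, SE 0.295, adjusted p = 0.672). Bmp2 also lay under WT mice in every treated mouse, with 6.87, 12.7 and 9.34 CPM against at least 12.97 CPM (log2 fold change -0.57, SE 0.312, adjusted p = 0.926). Dnase1l3 was at 22.3, 29.4 and 22.6 CPM, within the WT range (log2 fold change -0.36, SE 0.423). Treated mice had 24.6, 55.6 and 53.2 CPM of Clec4g, 3.58, 9.45 and 4.79 CPM of Lyve1, and 22.4, 32.6 and 27.8 CPM of Fcgr2b. For Gpr182 they had 12.2, 19.1 and 16.2 CPM, for Wnt2 1.18, 2.62 and 3.81 CPM, for Cd34 2.80, 2.40 and 3.97 CPM, and for Plvap 38.4, 50.9 and 49.4 CPM. All of these 7 genes overlapped with WT mice, and their log2 fold changes lay between -0.75 (Wnt2, SE 0.457) and 0.18 (Cd34, SE 0.461).

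Set against untreated Lipa-/- mice, treated mice had 5 members higher and 1 lower at 12-weeks, with 16.2% and 25.3% of all tested genes called in these directions. At 34-weeks 3 were higher and 3 lower, with 12.8% and 18.6% of all tested genes. The comparisons with WT and with treated mice share the Lipa-/- mice, so a gene that is extreme in those mice appears in both. Clec4g rose at both time points, by 5.93-fold (log2 fold change 2.57, SE 0.431, adjusted p = 0.000168) and 4.65-fold (log2 fold change 2.22, SE 0.426, adjusted p = 0.000532). Wnt2 rose by 3.32-fold (adjusted p = 0.00736) and 3.01-fold (adjusted p = 0.0141). Fcgr2b fell at both time points, with log2 fold changes of -1.33 (SE 0.281, adjusted p = 0.000991) and -1.41 (SE 0.28, adjusted p = 0.000714). At 34-weeks the Wnt2 call was lost without Lipa-/- mouse 4 (1.43), Lipa-/- mouse 5 (1.35) or treated mouse 12 (1.13), with adjusted p of 0.0657 to 0.0917.

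The other members were called at 1 time point each, or at neither. Bmp2 (4.40-fold, log2 fold change 2.14, SE 0.327, adjusted p = 7.7e-05), Oit3 (3.07-fold, 1.62, SE 0.303) and Gpr182 (2.61-fold, 1.39, SE 0.231) rose at 12-weeks. At 34-weeks their log2 fold changes were 0.86 (SE 0.315, adjusted p = 0.0385), 0.57 (SE 0.297, adjusted p = 0.138) and 0.67 (SE 0.227, adjusted p = 0.0247), under the fold threshold. Bmp2 was called there without Lipa-/- mouse 4 (1.01) or treated mouse 9 (1.05). Dnase1l3 did the reverse: its log2 fold change was 0.69 (SE 0.447, adjusted p = 0.198) at 12-weeks and 2.92 (SE 0.462, adjusted p = 9.53e-05) at 34-weeks. Without treated mouse 10, the 12-week value of Dnase1l3 was 1.08 (adjusted p = 0.0248). Lyve1 (0.45, SE 0.415, adjusted p = 0.376) and Cd34 (-0.01, SE 0.457, adjusted p = 0.991) were not called at 12-weeks and fell at 34-weeks, by 1.92 (SE 0.429, adjusted p = 0.0018) and 1.60 (SE 0.458, adjusted p = 0.00993) on the log2 scale. Plvap was not called at either time point (-0.63, SE 0.404, and 0.73, SE 0.4).

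Between the time points, edgeR and DESeq2 called 0 of the 10 members in WT mice (0.323% of all tested genes by edgeR), with 0 at an unadjusted p under 0.05 by either tool. In Lipa-/- mice both called 0 (0.495% of all tested genes), with 1 by edgeR and 2 by DESeq2 at an unadjusted p under 0.05. The largest change there was that of Cd34 (log2 fold change 1.04, SE 0.448, adjusted p = 0.273). Most of the untreated Lipa-/- mice grouped as 34-weeks were killed earlier, so their time does not match that of the other groups. In treated mice 3 members were called, where 32% of all tested genes were: Dnase1l3 (1.89, SE 0.447, adjusted p = 0.00358) and Plvap (1.41, SE 0.409, adjusted p = 0.0111) were higher at 34-weeks and Lyve1 (-1.51, SE 0.428, adjusted p = 0.00974) was lower. For the change between time points in the difference of Lipa-/- from WT mice, edgeR and DESeq2 called 0 members, with 0 at an unadjusted p under 0.05 by either tool, and edgeR called 0.0619% of all tested genes. For treated mice the same interaction called 1 member, Dnase1l3 (2.02, SE 0.611, adjusted p = 0.0348), where 18.4% of all tested genes were called. That share fell to 0.448% without WT mouse 1 and 0.0207% without WT mouse 3 of 12-weeks, to 3.16% without treated mouse 10 of 12-weeks, to 1.19% without WT mouse 1, 0.00692% without treated mouse 9 and 8.83% without treated mouse 11 of 34-weeks, and to 0.0378% with only these 4 groups. The Dnase1l3 difference was not called without WT mouse 1 or 3 or treated mouse 10 or 11 of 12-weeks, nor without WT mouse 1 or treated mouse 9 of 34-weeks, nor with only these 4 groups or pan-endothelial scaling.

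The members were then set against a list of pan-endothelial genes. Some of these changed themselves in Lipa-/- mice, so the list does not measure the amount of endothelium. The pan-endothelial list held 10 genes, among them Cdh5 (VE-cadherin) and Pecam1 (CD31), which join endothelial cells to one another. Their geometric mean was 7.61 to 9.03 CPM in WT and 3.70 to 6.65 CPM in Lipa-/- mice at 12-weeks, and 7.50 to 10.3 against 6.24 to 12.5 CPM at 34-weeks. In treated mice it was 6.89 to 7.31 and 6.395 to 7.80 CPM. At 12-weeks 1 of the 10 was called higher and 4 lower in Lipa-/- mice, and at 34-weeks 1 higher and 2 lower. Cdh5 (-0.53, SE 0.322, adjusted p = 0.205, and 0.15, SE 0.317, adjusted p = 0.727) and Pecam1 (-0.41, SE 0.347, adjusted p = 0.378, and 0.47, SE 0.343, adjusted p = 0.276) were not called at either time point. Neither were Tie1, Egfl7 and Esam, whose log2 fold changes lay between -0.84 and 0.62. The angiopoietin receptor Tek (-1.77, adjusted p = 0.000415, and -1.17, adjusted p = 0.0057) and Ptprb, a phosphatase that acts on it (-2.00, adjusted p = 4.72e-05, and -1.36, adjusted p = 0.000899), fell at both. Erg (-1.15, adjusted p = 0.0164) and Robo4 (-1.01, adjusted p = 0.0134) fell at 12-weeks, with 0.31 and -0.31 at 34-weeks, and Ecscr rose at both (1.20, adjusted p = 0.021, and 1.99, adjusted p = 0.00052).

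When the libraries were scaled to these 10 genes in place of all genes, the median of all tested genes moved to 0.89 at 12-weeks and -0.04 at 34-weeks in Lipa-/- against WT mice. At 12-weeks 3 members were then called lower: Dnase1l3 (-2.25, SE 0.418, adjusted p = 0.00017), Clec4g (-1.405, SE 0.411, adjusted p = 0.00855) and Bmp2 (-1.01, SE 0.353, adjusted p = 0.0247). Wnt2 (-1.07, adjusted p = 0.0788), Oit3 (-0.62, adjusted p = 0.0887) and Gpr182 (-0.50, adjusted p = 0.146) were no longer called. Lyve1 (2.07), Cd34 (1.93) and Fcgr2b (1.76) were called higher. Of all tested genes 42.2% were called in either direction under this scaling at 12-weeks and 35.5% at 34-weeks. At 34-weeks 6 members were called lower and 3 higher, with Gpr182 added (-1.02, adjusted p = 0.00668). Relative to that geometric mean, Dnase1l3 was 3.97 to 4.22 in WT and 0.760 to 0.969 in Lipa-/- mice at 12-weeks, and 2.69 to 3.88 against 0.284 to 0.380 at 34-weeks. For Clec4g the same ratio was 4.24 to 8.65 against 2.42 to 2.77, and 4.68 to 12.0 against 0.767 to 1.10. For Gpr182 it was 2.04 to 2.32 against 1.29 to 1.84 at 12-weeks, a smaller gap but without overlap.

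**Figure D3:**
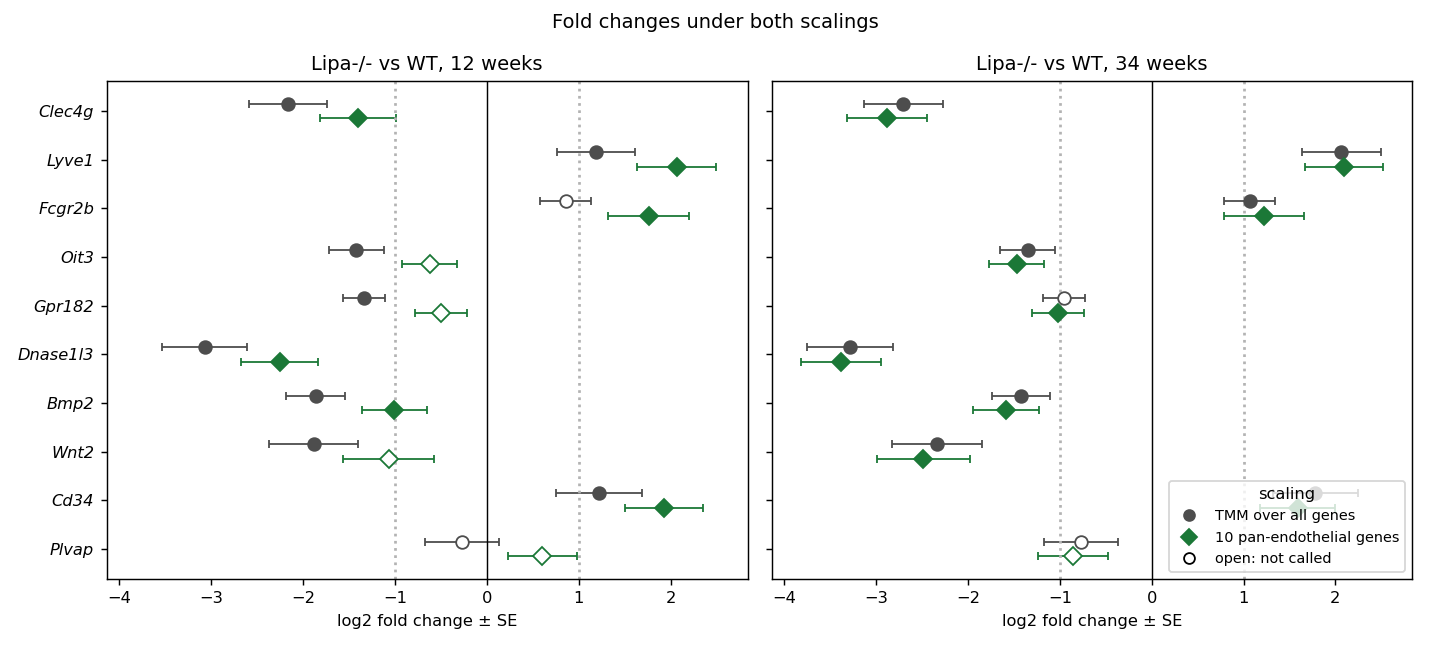
log2 fold change ± SE (horizontal axis) of the 10 genes in Lipa-/- against WT mice at 12-weeks (left) and 34-weeks (right), scaled over all genes (grey circles) or to 10 pan-endothelial genes (green diamonds). Filled symbols are called. At 12-weeks the green diamonds of Oit3, Gpr182 and Wnt2 are open, at -0.62, -0.50 and -1.07, and those of Clec4g, Dnase1l3 and Bmp2 are filled.

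The scaling over all genes mattered as well. With total counts in place of TMM, the median of all tested genes was 0.49 at 12-weeks and 0.60 at 34-weeks in Lipa-/- against WT mice. The members called were then 3 higher and 4 lower at 12-weeks, and 3 higher and 3 lower at 34-weeks, where 32% and 39.9% of all tested genes were called in either direction. With limma on log2(TPM + 0.5), 3 were higher and 3 lower at both time points, with 25.2% and 35.8% of all tested genes called. Clec4g, Dnase1l3 and Wnt2 were lower under total counts at both time points. Oit3 was not called at either time point (-0.94 and -0.70), nor were Gpr182 at 12-weeks (-0.86) and Bmp2 at 34-weeks (-0.76).

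The counts of called genes in this and the other lists stand beside the shares of all tested genes in the same comparison, 20.2% higher and 9.06% lower at 12-weeks and 20.5% and 15.7% at 34-weeks, and several are near them. Of 18 further LSEC genes that could be tested out of 20, 2 were called higher and 6 lower at 12-weeks in Lipa-/- mice, and 3 higher and 3 lower at 34-weeks. Ehd3, a membrane trafficking protein, fell (-2.25, adjusted p = 1.89e-05, and -2.77, adjusted p = 2.05e-06), and so did Kdr, the VEGF receptor 2 (-2.09, adjusted p = 4.57e-06, and -1.38, adjusted p = 0.00014). Stab1, a scavenger receptor that macrophages also express, rose (1.34, adjusted p = 0.000734, and 1.81, adjusted p = 3.77e-05). Stab2, a hyaluronan scavenger receptor named here after its values were seen, was at 0.01 (SE 0.289) and 0.18 (SE 0.287). Among 10 transcription factors of LSECs, 3 rose and 1 fell at 12-weeks, and 3 rose and 0 fell at 34-weeks. Gata4, which is needed for the sinusoidal identity of liver endothelium, was the one that fell (-1.37, adjusted p = 0.0134, and -0.82, adjusted p = 0.105 at 34-weeks). In treated mice Gata4 was lower than in WT mice at 12-weeks (-2.38, adjusted p = 0.00273), and its value at 34-weeks was -0.11 (adjusted p = 0.994). Klf4, induced by flow (1.57, adjusted p = 0.0175, and 2.75, adjusted p = 0.000291), and Tfec (2.15, adjusted p = 0.00113, and 1.71, adjusted p = 0.00411) rose at both, and Maf at 12-weeks (1.26, adjusted p = 0.004). Macrophage RNA rose in the same livers, as given further on. Which cells made the RNA of these factors was not tested, so the rises cannot be assigned to LSECs.

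A list of 16 genes of capillary basement membrane and continuous endothelium moved up in Lipa-/- mice, as Cd34 did. In Lipa-/- mice 9 were called higher and 2 lower at 12-weeks, and 13 higher and 0 lower at 34-weeks, with medians of 1.36 and 1.91. Nid1, which links laminin to collagen IV, rose by 2.27 (adjusted p = 9.49e-05) and 3.43 (adjusted p = 1.74e-06) on the log2 scale. Esm1, a proteoglycan of sprouting endothelial tip cells, had up to 0.622 CPM in WT mice and 2.77 to 12.3 CPM in Lipa-/- mice. The peptide gene Apln and its receptor gene Aplnr were at or near 0 in WT mice (at most 0.105 CPM of Apln and 0.0394 CPM of Aplnr) and had 0.966 to 1.99 and 0.580 to 1.54 CPM in Lipa-/- mice at 34-weeks. In treated mice at 12-weeks the list and Cd34 parted. The sum of the list was 57.8 to 81.0 CPM there, against 67.3 to 105 CPM in WT and 191 to 237 CPM in Lipa-/- mice. Cd34 had 2.76 to 6.32 CPM in the same treated mice, against 1.34 to 2.93 CPM in WT and 2.77 to 7.76 CPM in Lipa-/- mice. In treated against WT mice 1 of the 16 was higher and 1 lower at 12-weeks, against 13.6% and 12% of all tested genes. At 34-weeks 0 were called in either direction by edgeR. Only 0.131% of all tested genes were called higher there and 0.0895% lower, which leaves almost no calls to any list. Fibroblasts and stellate cells are known to make many of these matrix genes too.

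Lists for the sides of the sinusoid were read next. Of 7 genes of the central vein side, 1 rose (Vwf, 1.62, adjusted p = 0.00763) and 1 fell (Cdh13, -1.05, adjusted p = 0.0275) at 12-weeks, and 2 rose at 34-weeks (Vwf, 1.96, adjusted p = 0.00141, and Thbd, 1.69, adjusted p = 0.00612). Of 8 genes of the portal side 1 rose at 12-weeks, the scavenger receptor Msr1 that macrophages also make (2.13, adjusted p = 5.84e-05). At 34-weeks 3 rose: Msr1 (2.05, adjusted p = 5.41e-05), Jag1, a Notch ligand (1.47, adjusted p = 0.00158), and Efnb2, an ephrin of arteries (1.45, adjusted p = 0.0115).

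Since Bmp2 and Wnt2 signal to hepatocytes, the genes of both pathways were read beside them. Of 20 genes of BMP signalling and hepcidin control, 5 rose and 1 fell at 12-weeks in Lipa-/- mice, and 2 rose and 4 fell at 34-weeks. Bmp6, the other BMP ligand of LSECs, fell at 12-weeks (-1.95, adjusted p = 0.00136) and had -0.59 (adjusted p = 0.229) at 34-weeks. Bmper, which binds BMPs outside the cell, rose at both (adjusted p = 3.22e-05 and 1.34e-05), from 0.161 to 0.828 CPM in WT to 2.91 to 9.82 CPM in Lipa-/- mice. Hamp, which encodes hepcidin, did not pass the test (0.28, SE 0.632, adjusted p = 0.758, and -1.35, SE 0.642, adjusted p = 0.0955), and its mice ranged from 468 to 2287 CPM in WT and from 209 to 1620 CPM in Lipa-/- mice. Id1, a target gene of BMP signals in many cells, was higher at 12-weeks (2.18, adjusted p = 0.00415), with 0.58 (adjusted p = 0.376) at 34-weeks. Hamp2, a paralogue of Hamp with which it can share reads, was higher at 12-weeks (2.35, adjusted p = 0.0016).

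Of 25 genes of Wnt signalling and its targets 0 rose and 4 fell at 12-weeks in Lipa-/- mice, and 0 rose and 13 fell at 34-weeks, with medians of -0.44 and -1.24. The genes that fell most are made by hepatocytes near the central vein: Cyp1a2 (-1.80, adjusted p = 0.000327, and -3.24, adjusted p = 1.42e-06), Cyp2e1 (-1.36, adjusted p = 0.00729, and -3.18, adjusted p = 6.46e-06) and Oat (-1.42, adjusted p = 0.00471, and -2.99, adjusted p = 8.46e-06). Glul, glutamine synthetase, had -1.19 (adjusted p = 0.0646) at 12-weeks and fell at 34-weeks (-2.60, adjusted p = 0.000541). The feedback gene Axin2 (0.67, SE 0.505, and -0.63, SE 0.497) and the receptor gene Lgr5 (-0.24, SE 0.362, and -0.50, SE 0.357) did not pass the test. Of 8 general hepatocyte markers 3 fell at 12-weeks and 6 at 34-weeks, where 9.06% and 15.7% of all tested genes fell, among them Ttr (-1.02, adjusted p = 0.0483, and -1.97, adjusted p = 0.00072), Cps1 (-1.45 and -1.55), Tat (-1.50 and -1.15) and Serpinc1 (-1.44 at 34-weeks). In treated against WT mice 8 Wnt genes were lower at 12-weeks, Glul among them (-1.61, adjusted p = 0.0204), and 12% of all tested genes were. Wnt2 itself was at -0.16 (SE 0.465) there. At 34-weeks 0 of the 25 were called by edgeR, where 0.131% of all tested genes were called higher and 0.0895% lower.

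Cells other than LSECs changed in the same livers. All 12 macrophage markers rose in Lipa-/- mice at both time points, and their summed level was 105 to 394 CPM in WT and 4823 to 9710 CPM in Lipa-/- mice. Gpnmb, a marker of lipid-laden macrophages, had at most 0.631 CPM in WT and at least 1343 CPM in Lipa-/- mice. In treated mice the sum was 860 to 2662 CPM at 12-weeks and 351 to 787 CPM at 34-weeks. At 34-weeks 2 of 12 were called above WT mice (Trem2, adjusted p = 0.0259, and Gpnmb, adjusted p = 0.00147), against 0.131% of all tested genes. Of 8 Kupffer cell markers 2 rose and 2 fell at 12-weeks in Lipa-/- mice, and 0 rose and 4 fell at 34-weeks. Cd163 was at 0.0368 to 0.662 CPM in Lipa-/- against 4.55 to 12.5 CPM in WT mice. Fcgr2b and Lyve1, which macrophages can make, were higher in the untreated Lipa-/- livers, which had more macrophage RNA. In treated mice at 12-weeks, where the macrophage sum was above that of WT mice, Fcgr2b had 22.0 to 29.1 CPM, under all WT mice. Lyve1 had 12.0 to 20.2 CPM in them, against 11.1 to 13.7 CPM in untreated Lipa-/- mice. The part of macrophages in either gene was not tested. The fall of 6 members took place in the untreated Lipa-/- livers as well. The part of a larger share of macrophage RNA in that fall was not tested either, beyond the scaling to pan-endothelial genes above.

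**Figure D4:**
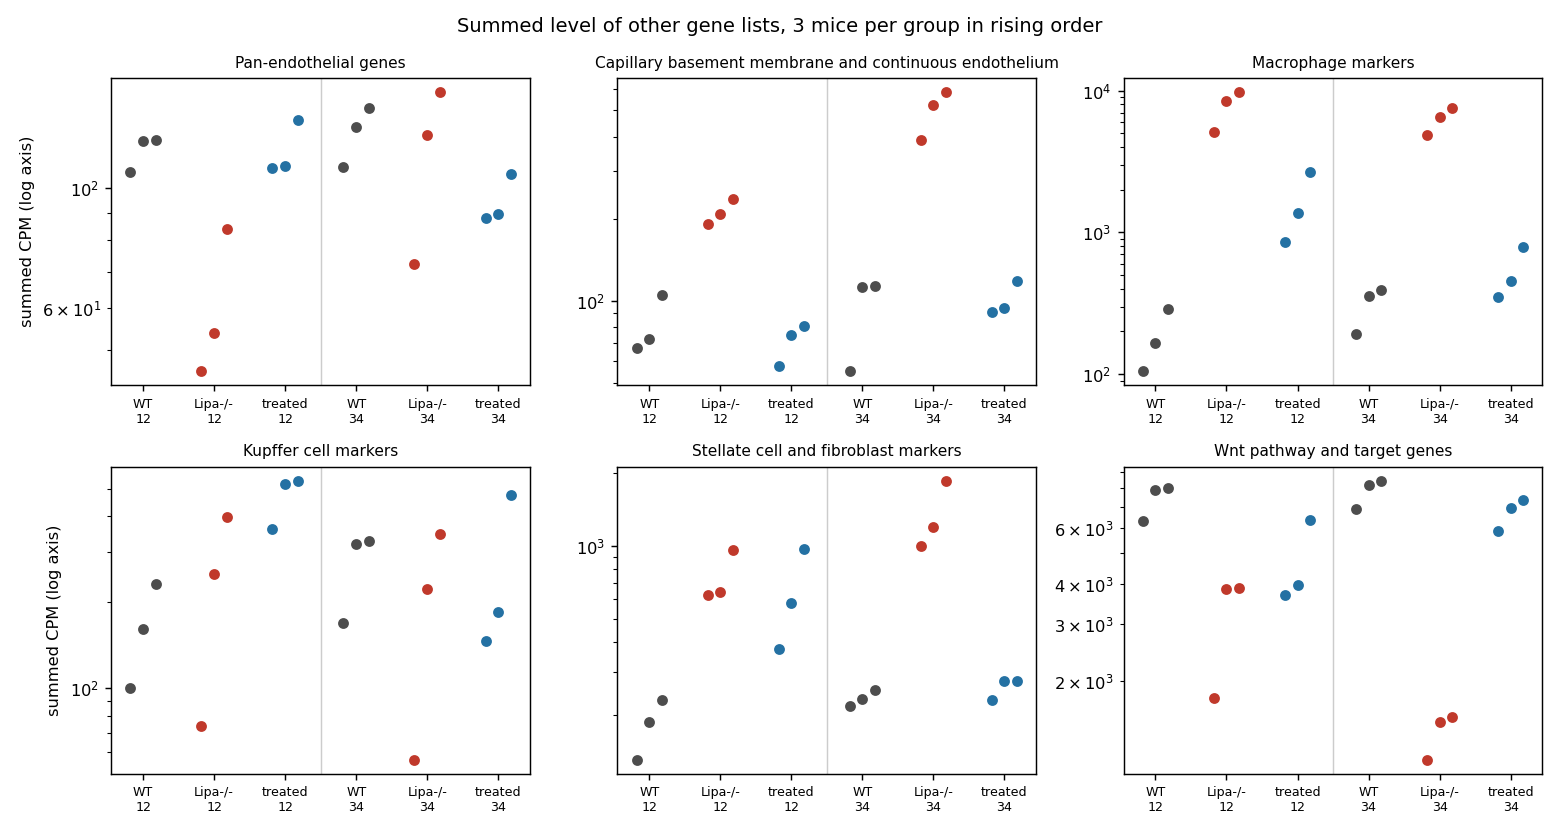
Summed CPM (vertical log axes) of 6 other gene lists in the 18 mice, by group and weeks post-injection, with the 3 mice of each group in rising order. Macrophage markers are at 105 to 394 CPM in WT and 4823 to 9710 CPM in Lipa-/- mice, and the sum of the capillary list is at 55.3 to 113 CPM in WT and 191 to 581 CPM in Lipa-/- mice.

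Stellate cell and fibroblast markers had sums of 130 to 253 CPM in WT and 624 to 1855 CPM in Lipa-/- mice. Of 9 tested, 6 rose and 1 fell at 12-weeks and 6 rose and 2 fell at 34-weeks, with Col1a1 higher (5.42, adjusted p = 9.99e-06, and 6.28, adjusted p = 2.25e-06) and Lrat, the enzyme of retinol storage in stellate cells, lower (-1.77, adjusted p = 0.000456, and -2.63, adjusted p = 1.05e-05). Lymphatic endothelial markers summed to 25.6 to 104 CPM in WT and 43.9 to 104 CPM in Lipa-/- mice. In Lipa-/- mice at 34-weeks Prox1 weighed most in this sum, with 36.6 to 55.2 CPM. Pdpn followed with 13.3 to 26.6 CPM and Flt4 with 12.4 to 19.7 CPM. Flt4 is also on the list of further LSEC genes, and which cells made the Prox1 RNA was not tested. The sum therefore says little about lymphatic endothelium. Of these 5, Pdpn rose at both, with at most 0.767 CPM in WT and 5.68 to 26.6 CPM in Lipa-/- mice. Ccl21a (3.75 to 11.5 against 0.272 to 0.670 CPM) and Mmrn1 (1.43 to 5.17 against 0.177 to 0.315 CPM) rose at 34-weeks. Pdpn is also made by macrophages and fibroblasts, and the part of lymphatic vessels in the Lyve1 values was not tested. B cell markers summed to 2.15 to 11.2 CPM in WT and 7.39 to 26.01 CPM in Lipa-/- mice, and of 6, 2 rose at 12-weeks and 1 rose and 1 fell at 34-weeks. Progenitor markers, of interest for Cd34, had 1 of 3 tested called, Mpo, which rose at both time points. Dendritic cell markers had 3 of 6 higher at 12-weeks and 2 at 34-weeks, Itgax among them, which macrophages share.

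The 18 mice also show which genes have the profiles most like those of the members. Likeness was the root mean square difference of log2 CPM after each gene was centred on its mean over the 18 mice, and it is a description without a test. The difference was not scaled to the spread of each gene, so a small value can reflect a small spread. Oit3 was nearest to Bmp2 (0.244), Gpr182 (0.281) and Tek (0.318). Bmp2 and Gpr182 were 0.374 apart, farther than Oit3 and Tek, and Gpr182 had genes outside the set nearer to it than Oit3. Wnt2 had Uck1 (0.457), Bmp2 (0.472) and Glrx5 (0.475) nearest, and Bmp2 had Gtf2e1 (0.365) after Oit3. The 3 genes nearest to Clec4g were Car8 (0.349), Ugt2b35 (0.362) and Pgrmc1 (0.364). Dnase1l3 had Acaa1b (0.455), Ehd3 (0.49) and Dpy19l3 (0.539), at a spread of its own of 1.59. Those nearest to Gpr182 were Kbtbd7, Naa30 and Timm29 (0.237 to 0.268), and to Fcgr2b Cd38, Bbs9 and Rin2 (0.254 to 0.324). Lyve1 had Ncoa7, Gucy1a1 and Rgs11 (0.458 to 0.472), Cd34 had Plscr4, Lhfp and Hells (0.417 to 0.437), and Plvap had Apmap, Sars2 and Yipf3 (0.318 to 0.332). Among the members themselves, Lyve1 and Dnase1l3 were farthest apart (2.39) and Bmp2 and Oit3 nearest.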

How the data were processed

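Polyadenylated liver RNA with ERCC spike-in was sequenced for 18 mice. The authors assigned paired-end reads to Ensembl transcripts of GRCm39 with Salmon 1.9.0 and summed them to genes with tximport 1.28.0, which gave the deposited estimated counts, TPM values and mean transcript lengths per mouse, the lengths in bases. The deposited table of the authors' DESeq2 comparisons (log2 fold changes, p-values and adjusted p-values) was not used. Mice were grouped by their labels and each counts as 1 replicate.

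The 10 genes, the other lists and the tests were chosen with earlier results of these data known. Estimated counts were rounded and genes whose sum across all mice exceeded 100 reads were kept. In R 4.3.3, edgeR 4.0.16 was used for TMM factors and for a quasi-likelihood model of the 6 groups, from which 11 comparisons were drawn. The SE of a log2 fold change is its size over the square root of F. Alternatives were DESeq2 1.42.0 and edgeR with gene length offsets, total count, upper quartile and pan-endothelial scaling, no filter, a fit of only the groups compared, limma 3.58.1 on log2(TPM + 0.5), an adjusted p alone, mouse number as a block, and each mouse left out.

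All 10 genes are named in each comparison within a time point. From each of the 16 other lists up to 4 called genes with the largest change in Lipa-/- mice are named, plus Hamp, Axin2, Lgr5, Glul and the pan-endothelial genes. Others are marked, and of the macrophage, dendritic, Kupffer, B cell and progenitor lists the levels or counts stand for some of them. Mice of a group correlated at 0.93 to 0.983 in log2 CPM. On simulated data of the 12-week comparison with 14370 genes, edgeR called 79% of the 4-fold changes with 4 false calls, and DESeq2 91% with 21. Of the 2-fold changes only 16% by edgeR and 33% by DESeq2 passed the adjusted p there. The simulation changed a far smaller share of genes than was called in the real 12-week comparison, 20.2% higher and 9.06% lower. The adjusted p depends on that share, so these figures do not give the recovery or the false calls in the real data. A gene not called may still differ by 2-fold. Gene positions and the 250-base windows came from GRCm39 with the GENCODE annotation, and the RNA was counted on the same build. The window of 1 further gene is not reported here.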

Additional observations from a re-analysis of the deposited data

Results flagged for a closer look

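The difference of treated from WT mice changed between 12- and 34-weeks for Dnase1l3 by 2.02 on the log2 scale (SE 0.611, adjusted p = 0.0348, edgeR interaction). It is listed because this test of the difference passed, as it did for 18.4% of all tested genes. It was not called in 6 of the 12 fits that left out 1 mouse, nor with only the 4 groups compared or pan-endothelial scaling. The 3 treated mice of 12-weeks had 1.94, 5.65 and 12.3 CPM and those of 34-weeks 22.3, 29.4 and 22.6 CPM, and WT mice had 20.2 to 38.7 CPM at both. Time and study code cannot be told apart.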

How the results depend on the processing

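Among values of single members under another setting, 734 kept their direction and their side of the threshold, 38 lost a call, 24 gained one and 44 changed sign. These values cover the 6 comparisons within a time point, and there no called member changed sign under the settings run. DESeq2 with gene length offsets kept 59 of 60 values, edgeR with the same offsets 59, upper quartile scaling 59, no filter 60 and only the groups compared 58, whereas total count and pan-endothelial scaling kept 40 each and log2 TPM 38. The cause of the changes below was not tested. Depth limits Wnt2 and Cd34 most, which have the fewest reads.

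The number of members called in treated against Lipa-/- mice was 3 with log2 TPM at 12-weeks and 10 with pan-endothelial scaling at 34-weeks, both against 6, where 45.2% and 33.8% of all tested genes were called. Pan-endothelial scaling gave 3 called in Lipa-/- mice between the time points, against 0, with 41.8% of all tested genes called, a share above that of the members, and 0 in the interaction of treated mice, against 1. That interaction also gave 0 with only the groups compared. In treated mice between the time points an adjusted p alone gave 5, against 3. With the mouse number as replicate block, 0 members were called there and 0 in the interaction of treated mice, as were 0% of all tested genes in both. Each liver came from a different killed mouse, so a number does not name the same mouse at both time points. Mice with the same number correlated from -0.253 to 0.46 in their deviations, which cannot show whether the numbers mark pairs. The other fits with the block called 0 as before. With 1 mouse left out, the counts were 6 to 7 for Lipa-/- against WT mice at 12-weeks and 7 to 9 at 34-weeks, 1 to 3 for treated against WT mice at 12-weeks (1 without WT mouse 3), 6 to 7 and 5 to 7 for treated against Lipa-/- mice, 2 to 5 for treated mice between the time points (5 without treated mouse 11 of 34-weeks), and 0 to 2 for the interaction of treated mice (2 without WT mouse 2 of 12-weeks). A mouse left out leaves 2 in its group, in a fit that pools the spread over groups.

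These log2 fold changes changed sign. Plvap in Lipa-/- against WT mice at 12-weeks was 0.205 with total counts, 0.60 with pan-endothelial scaling and 0.23 with log2 TPM. In treated against WT mice at 12-weeks, total counts and log2 TPM gave -0.0329 and -0.29 for Clec4g, -0.22 and -0.45 for Oit3, -0.34 and -0.55 for Gpr182, and -0.17 and -0.41 for Bmp2. Length offsets in edgeR gave -0.00604 for Gpr182, and pan-endothelial scaling 0.12 for Wnt2. With 1 mouse left out the ranges were -0.0399 to 0.66 for Clec4g, -0.10 to 0.33 for Oit3, -0.14 to 0.14 for Gpr182, -0.22 to 0.52 for Bmp2 and -0.52 to 0.25 for Wnt2. In treated against WT mice at 34-weeks, pan-endothelial scaling gave 0.013 for Fcgr2b, 0.077 for Gpr182, 0.0299 for Dnase1l3 and 0.35 for Plvap, and Plvap was 0.0060 with total counts, 0.011 with the upper quartile and 0.12 with log2 TPM. With 1 mouse left out the ranges were -0.35 to 0.55 for Lyve1, -0.049 to 0.33 for Cd34 and -0.26 to 0.089 for Plvap. In treated against Lipa-/- mice at 12-weeks, Lyve1 was -0.41 with total counts, -0.15 with pan-endothelial scaling and -0.64 with log2 TPM, Dnase1l3 was -0.18 with total counts and -0.38 with log2 TPM, and Cd34 was 0.014 with only the groups compared. The ranges with 1 mouse left out were -0.11 to 1.08 for Dnase1l3 and -0.34 to 0.63 for Cd34. At 34-weeks Oit3 was -0.0177 with total counts.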
